A study of Mus musculus with 20 samples.

Results

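Ubiquitin ligases of 6 gene families were examined in the brains of mice with a null mutation. The members were the probes with a single gene symbol that begins with Fbx, Klhl, Herc, Trim, Rnf or Cul followed by a digit, and that had a value on at least 2 arrays in every brain region. By symbol 171 probes of 129 genes qualified, out of 15245 probes on the array. The rule on values kept 145 probes of 111 genes. The members comprised 12 probes of 5 cullin genes, 32 probes of 28 F-box genes, 14 probes of 13 Klhl genes, 3 probes of 2 Herc genes, 27 probes of 20 Trim genes and 57 probes of 43 Rnf genes. Of the 26 probes left out, 5 had no value on any array, and these were the only probes of Cul2, Rnf17, Trim27, Trim33 and Trim59. The other 21 probes left out included 12 with a value on 1 array in the region with fewest. Their median ratios over arrays lay between -0.30 and 0.12. The 11 members with 2 arrays in the region with fewest had fitted means, a different measure, between -0.41 and 0.28.

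The study hybridised amplified RNA of a brain region from a null mutant mouse together with a wild-type pool of that region on 2-colour cDNA arrays. Each of 4 regions (brain stem-diencephalon, cerebellum, hippocampus and cortex) had 5 arrays. The null RNA was in channel 1 on 3 arrays of a region and in channel 2 on the 2 dye swaps. The labels give the mutants as null but give no strain, sex or age, do not say how many mice made up the wild-type pools, and do not state whether numbered arrays came from different animals, so the spread behind the p-values is that of these arrays and may be technical. All values are null over wild type log ratios, read as log2, with the swapped arrays turned and each array centred on its median. None of the sources used here gives the order of the channels in the deposited ratio, so this direction is only likely, and every sign below turns if it is the opposite. Every value is a ratio within an array, so the identity of a region could not be checked against the level of its markers, and fewer cells of a type and less RNA per cell cannot be told apart.

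An array deposited under 2 regions, as swap 1 of cerebellum and swap 2 of brain stem-diencephalon, was left out of both. Its copies correlated at 0.9952 over 6748 probes. The other arrays gave 4 replicates in cortex, where replicate 4 is a swapped array without a number, and 3 in each other region. The Y-linked Eif2s3y had ratios of -1.36 to -0.44 on the 6 arrays of number 1 and of 0.94 to 1.64 on 11 other arrays, so the number 1 arrays stand apart, and the copy of the repeated array labelled cerebellum number 1 had a ratio of 1.71. Each probe was fitted over 13 replicates with 4 region terms and an orientation term, and called where limma's moderated test gave a Benjamini-Hochberg adjusted p under 0.05 over 12334 probes. The fit treats the replicates as independent, although those of the same number in different regions correlated at a median of 0.297, against -0.124 for different numbers. The fitted value weights both orientations equally, so it can differ from the mean of the replicates.

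Ubiquitin is passed from an activating to a conjugating enzyme and then, by a ligase that recognises the substrate, to the protein to be marked. Cullins are scaffolds that hold a RING protein at one end and a substrate adaptor at the other. Cul1 takes F-box proteins through Skp1, and Cul3 takes BTB-Kelch proteins, most of which are named Klhl. Most Trim and most Rnf proteins carry a RING domain of their own, and Herc proteins carry a HECT domain, which accepts ubiquitin before handing it on. Ligases set the turnover of synaptic receptors, axon guidance factors and cell cycle proteins in neurons.

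The 250 bases before the start of 3 genes are printed because these genes had the highest member mean (Herc1), the highest Rnf mean (Rnf34) and the lowest member mean (Fbxw24), and because their CpG content differs widely. They are RefSeq sequences on GRCm38.p6, on the strand of the gene, from chr9:66350200-66350449 for Herc1 and chr5:122849938-122850187 for Rnf34, both on the plus strand, and chr9:109626060-109626309 for Fbxw24, on the minus strand. Capitals mark each CpG dinucleotide.
Herc1: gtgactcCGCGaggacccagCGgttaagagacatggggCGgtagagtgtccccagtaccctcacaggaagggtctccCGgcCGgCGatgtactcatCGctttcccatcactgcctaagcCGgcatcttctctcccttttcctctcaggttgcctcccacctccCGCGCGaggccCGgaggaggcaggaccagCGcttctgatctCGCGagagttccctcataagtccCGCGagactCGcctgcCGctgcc
Rnf34: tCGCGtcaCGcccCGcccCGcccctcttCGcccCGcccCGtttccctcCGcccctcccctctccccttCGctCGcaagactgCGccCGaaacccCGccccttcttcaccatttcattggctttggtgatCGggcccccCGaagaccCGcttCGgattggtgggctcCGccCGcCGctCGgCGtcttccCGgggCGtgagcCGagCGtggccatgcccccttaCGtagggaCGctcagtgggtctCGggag
Fbxw24: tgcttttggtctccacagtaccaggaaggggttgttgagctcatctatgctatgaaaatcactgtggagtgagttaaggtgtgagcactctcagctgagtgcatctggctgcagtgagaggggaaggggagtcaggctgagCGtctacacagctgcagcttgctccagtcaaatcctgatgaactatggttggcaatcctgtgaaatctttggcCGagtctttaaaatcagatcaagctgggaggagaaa

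The stretch of Herc1 holds 20 CpG at 63.6% G and C, that of Rnf34 holds 30 CpG at 70.8%, and that of Fbxw24 holds 2 CpG at 49.2%. RefSeq sequences were found for 87 of the 111 member genes, and their 250 bases held a median of 17 CpG, against 6 over the 27025 genes of the table. Between 0 and 2 CpG stood in 9.2% of the member genes and in 29.6% of all genes. The genes of the table were not limited to those measured on the array, whereas the members were. The CpG content of measured genes outside the families was not counted, so the difference is not shown to belong to ligases. The E-box CACGTG, the cyclic AMP element TGACGTCA and the FOXO site GTAAACA, searched on both strands, had no match in the 3 stretches, and occurred in 6.05%, 1.62% and 3.09% of all genes.

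Averaged over the 4 regions, 23 of the 145 member probes were called, 10 higher (6.88% of all probes were) and 13 lower (6.54%) in null mutants. The 23 probes belong to 22 genes and make up 15.9% of the members, and 13.4% of all 12334 probes were called, so the share of the members lies near the background. The highest were Herc1, Klhl24 and Fbxo34, and the lowest was the F-box gene Fbxw24. The changes were small apart from Fbxw24, which alone passed 1.5-fold. Of the 23 probes, 22 had the same sign in both orientations of the arrays, 22 had 1 sign in all 4 fitted regions, and 8 had 1 sign in every replicate with a value. As these probes were called on their mean over the same arrays, such agreement follows in part from the selection and is no separate support. The count rested on single replicates, and the share of all probes called moved too. The count was 2 without replicate 4 of cortex (1.23% of all probes), 5 without replicate 2 of cerebellum (2.04%), 15 without replicate 2 of hippocampus (5.75%) and 35 without replicate 1 of hippocampus (17.1%). Without the channel 1 arrays of number 1 it was 61 of 144 members (42.4%), beside 31.1% of all probes. The repeated array also moved it, to 40 of 145 when that array was kept in both regions, beside 21.1% of all probes, and all 23 were among the 40. With the array number as a replicate block it was 17 of 143 members (11.9%), beside 8.19% of all probes. That block ended the mean calls of Fbxo34, Rnf34, Rnf14, Rnf141, Rnf26, Fbxl19, Klhl9 and Trim8 (probe 10662) among the named members.

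**Figure D1:**
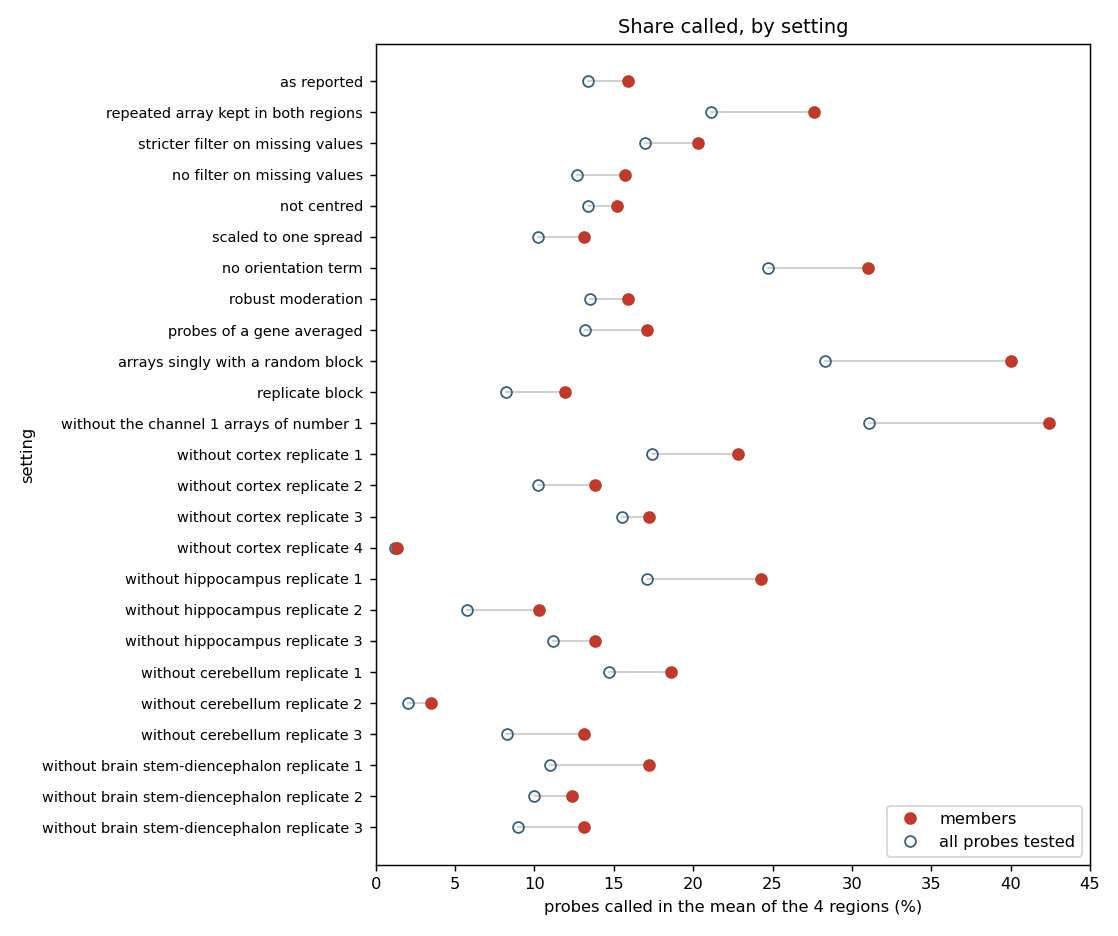
Share of probes called in the mean of the 4 regions (x axis, percent) among the members (red) and among all probes tested (open blue), for the reported fit and each of the 24 alternatives (y axis). The members' share lies above that of all probes in each fit, by little where few probes are called, and both fall to 1.38% and 1.23% without replicate 4 of cortex.

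**Figure D2:**
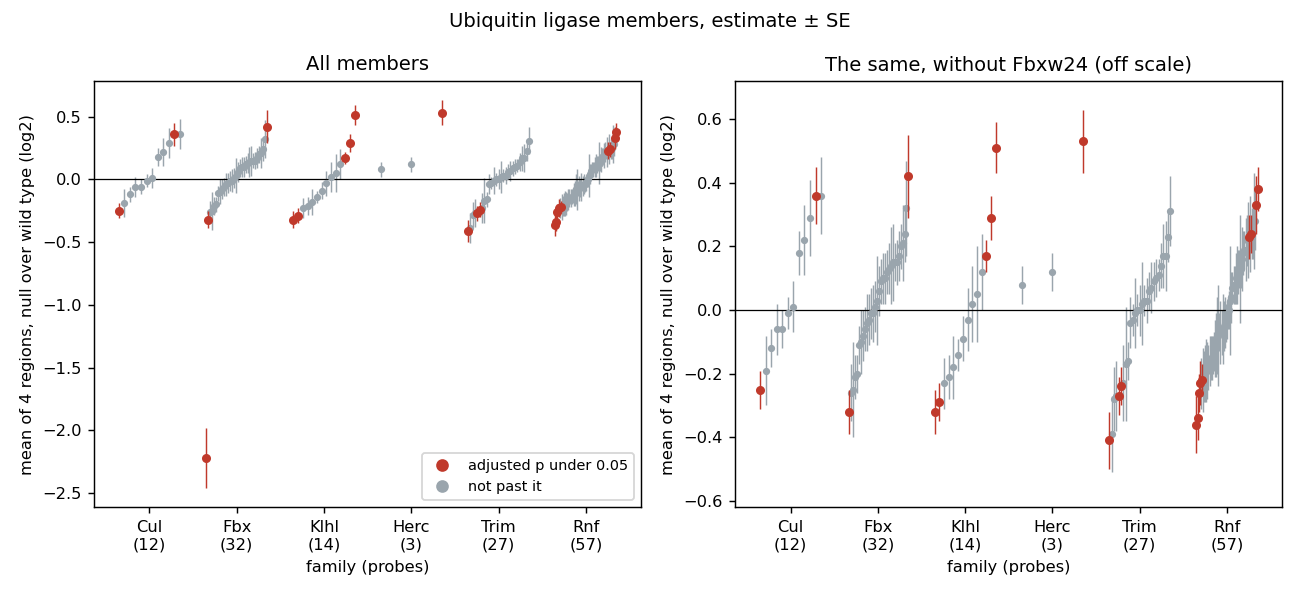
Fitted null over wild type log2 ratios (mean of the 4 regions, y axis) of the 145 member probes, sorted within each of the 6 families (x axis, number of probes below each name). Points are estimates and bars are their SE, red where the adjusted p is under 0.05. Members spread on both sides of 0 in every family but Herc, and Fbxw24 at -2.22 lies far below the rest.

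Calls in 1 direction alone were seen in Trim (3 lower) and in Herc (1 higher), and the families were not tested as sets. The median ratio of all members was 0.00 in the mean of the regions, with 73 probes above 0 and 72 below, and it was 0.01 over all probes tested. The standard deviation across probes was 0.268 among members, Fbxw24 included, and 0.203 among all probes tested. By family the medians were 0.00 for Cul, 0.04 for Fbx, -0.06 for Klhl, 0.12 for Herc, 0.00 for Trim and -0.03 for Rnf. The share called ranged from 9.38% in Fbx to 35.7% in Klhl, against 13.4% of all probes. In Klhl 5 of 14 probes were called, 3 higher and 2 lower. In all, 80 members (55.2%) had 1 sign in all 4 fitted regions, against 46.5% of all probes, and 9 of 139 members (6.47%) with 10 or more replicates had 1 sign in every one, against 4.96% of all such probes.

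Among the cullins, 2 of 12 probes were called in the mean (16.7%, against 13.4% of all probes). They were a Cul1 probe, which was higher, and a Cul4b probe, which was lower. Cul1 is the scaffold of the SCF ligases. Its probe 12866 had ratios of 0.08, 0.36, 0.77 and 0.85 in cortex, of 0.00, 0.56 and 0.27 in hippocampus, of 0.03, 0.41 and 0.37 in cerebellum, and of 0.05, 0.21 and 0.25 in brain stem-diencephalon. The replicate 1 value was the lowest in every region and lay between 0.00 and 0.08. The fitted mean was 0.36 ± 0.09 (SE, n = 13, limma adjusted p = 0.0177). A further Cul1 probe, 13959, had the same fitted mean of 0.36 ± 0.12 and missed the threshold (limma adjusted p = 0.0671), while probes 12457 and 12766 had means of -0.06 and -0.12, so the 4 Cul1 probes do not give 1 direction. Which of them reports the Cul1 transcript was not tested.

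Cul4b, which works with Ddb1 and is encoded on the X chromosome, gave a similarly divided picture. Its probe 473 averaged -0.25 ± 0.06 (SE, n = 13, limma adjusted p = 0.0237), and its replicates ran from -0.58 to 0.25 with 9 of 13 below 0. The mean over its channel 1 arrays was -0.04 and over its swapped arrays -0.46. The other Cul4b probes, 3621 and 5830, averaged 0.18 and 0.22 and were not called. Cul3, the scaffold of the Klhl ligases, averaged 0.01 ± 0.08 in its single member probe, and the probes of Cul5 (-0.06 and 0.29) and Cul7 (-0.19 and -0.01) were not called.

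Fbxw24 had the lowest ratio of all members in every region. It belongs to the F-box proteins with WD40 repeats, and in the RefSeq table it lies between Fbxw15 and Fbxw25 among 15 Fbxw genes of the same chromosome. These are close relatives, so cDNA probes may take up RNA of more than 1 of them, and this was not tested. On single arrays it stood at -3.85, -2.98 and -4.20 in cortex, at -2.13, -2.55, -2.12 and -1.57 in hippocampus, at -2.09, -3.09 and -2.13 in cerebellum, and at -1.41, -2.75, -2.15 and -0.36 in brain stem-diencephalon. All 10 channel 1 arrays and all 4 swapped arrays with a value lay below 0, and replicates 1 and 4 of cortex had none. The fitted ratio was -3.21 ± 0.38 in cortex (SE, n = 2, limma adjusted p = 0.00533), -2.31 ± 0.38 in cerebellum (n = 2, limma adjusted p = 0.0271), -1.79 ± 0.35 in hippocampus (n = 3, limma adjusted p = 0.063) and -1.55 ± 0.35 in brain stem-diencephalon (n = 3, limma adjusted p = 0.165). The mean of the regions was -2.22 ± 0.24, 4.65-fold lower in null mutants than in wild type (limma adjusted p = 0.000598), and it stayed called under all 24 alternatives. The related Fbxw22, the other member of that group of genes, averaged -0.11 ± 0.06 (limma adjusted p = 0.224). Fbxw27 was outside the rule, with probe medians of -0.94 over 2 arrays and -0.63 over 3 arrays.

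Among the other F-box genes 1 probe was called higher and 1 lower in the mean. Fbxo34, an F-box protein without a known repeat domain, had 0.14, 1.01, 1.18 and 1.25 in cortex (probe 12449). In the other regions its ratios were -0.34 and 0.75 in hippocampus, -0.10, 0.42 and 0.20 in cerebellum, and -0.15, 0.37 and 0.08 in brain stem-diencephalon. Replicate 1 was the lowest in each of the 4 regions and the only one below 0 in the last 3. Its fitted ratio was 0.94 ± 0.19 in cortex (SE, n = 4, limma adjusted p = 0.0334) and 0.42 ± 0.13 in the mean (limma adjusted p = 0.0484), and the mean lost its call under 11 of 24 alternatives. The other Fbxo34 probe, 6545, averaged 0.24 ± 0.09 and was not called. Fbxl19, which binds unmethylated CpG through a zinc finger, fell by 0.32 ± 0.07 in the mean (n = 12, limma adjusted p = 0.0105), with replicates from -0.60 to 0.04 and 11 of 12 below 0.

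Split by the letter after Fbx, which names the substrate-binding part, 14 of 19 Fbxo probes lay above 0 with a median of 0.10, 4 of 7 Fbxl probes lay below 0 with a median of -0.01, and 5 of 6 Fbxw probes lay below 0 with a median of -0.16. Only 1 probe in each of these groups was called, which is 5.26% of Fbxo, 14.3% of Fbxl and 16.7% of Fbxw, against 13.4% of all probes. Fbxw7, which recognises phosphorylated cyclin E and Notch, averaged -0.06 ± 0.07, and Fbxo7, known from inherited parkinsonism in humans, averaged 0.15 and 0.17 in its probes. None of these passed the test.

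The Klhl adaptors held the largest share of calls of the 5 families with more than 3 probes. Klhl24, a BTB-Kelch protein that interacts with kainate receptor subunits in neurons of rat, had ratios of 0.23, 0.31 and 1.16 in cortex, of 0.43, 0.44 and -0.27 in hippocampus, of 0.35, 0.26 and 0.24 in cerebellum, and of 0.57, 0.67 and 0.99 in brain stem-diencephalon (probe 14702). Only replicate 3 of hippocampus lay below 0. The fitted mean was 0.51 ± 0.08, 1.42-fold higher in null mutants than in wild type (SE, n = 12, limma adjusted p = 0.00386), and the call held under all 24 alternatives (adjusted p of at most 0.0499). The second Klhl24 probe, 4148, averaged 0.02 ± 0.12 (limma adjusted p = 0.946), and the gap of 0.50 between the probes was the widest of any member gene.

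Klhl9 and Klhl13 are partners that act with Cul3 on Aurora B in dividing human cells, and here they moved in opposite directions. Klhl13, on the X chromosome, was above 0 in all 12 replicates, from 0.08 to 0.50, and averaged 0.29 ± 0.07 (SE, limma adjusted p = 0.0167). With the repeated array kept in both regions the Klhl13 mean was 0.49, with 0.67 in cerebellum in place of 0.23. Klhl9 was below 0 in 12 of 13 replicates, from -0.56 to 0.01, and fell by 0.29 ± 0.06 (limma adjusted p = 0.0118). Klhl42, an adaptor for the microtubule-severing protein katanin in human cells, was below 0 in all 13 replicates and fell by 0.32 ± 0.07 (limma adjusted p = 0.0132). Klhl18 was above 0 in all 13 replicates with a small mean of 0.17 ± 0.05 (limma adjusted p = 0.0336).

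Herc1 had the highest mean of all members. It is a very large HECT ligase, and a point mutation of it in the tambaleante mouse leads to loss of Purkinje cells. Its ratios were -0.03, 0.38 and 0.84 in cortex, -0.25, 0.79 and -0.33 in hippocampus, 0.43, 0.58 and 0.76 in cerebellum, and 0.71, 1.18 and 1.12 in brain stem-diencephalon. All values of cerebellum and brain stem-diencephalon lay above 0, while those of cortex and hippocampus lay on both sides of it. The fitted mean was 0.53 ± 0.10, 1.44-fold higher in null mutants than in wild type (SE, n = 12, limma adjusted p = 0.00993), and only leaving out replicate 4 of cortex ended the call (limma adjusted p = 0.0869). The fitted ratio was 1.02 in brain stem-diencephalon and 0.07 in hippocampus, but the difference between regions did not pass the test (limma's F test over 12 replicates, adjusted p = 0.988). The probes of Herc4 averaged 0.08 and 0.12 and were not called.

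**Figure D3:**
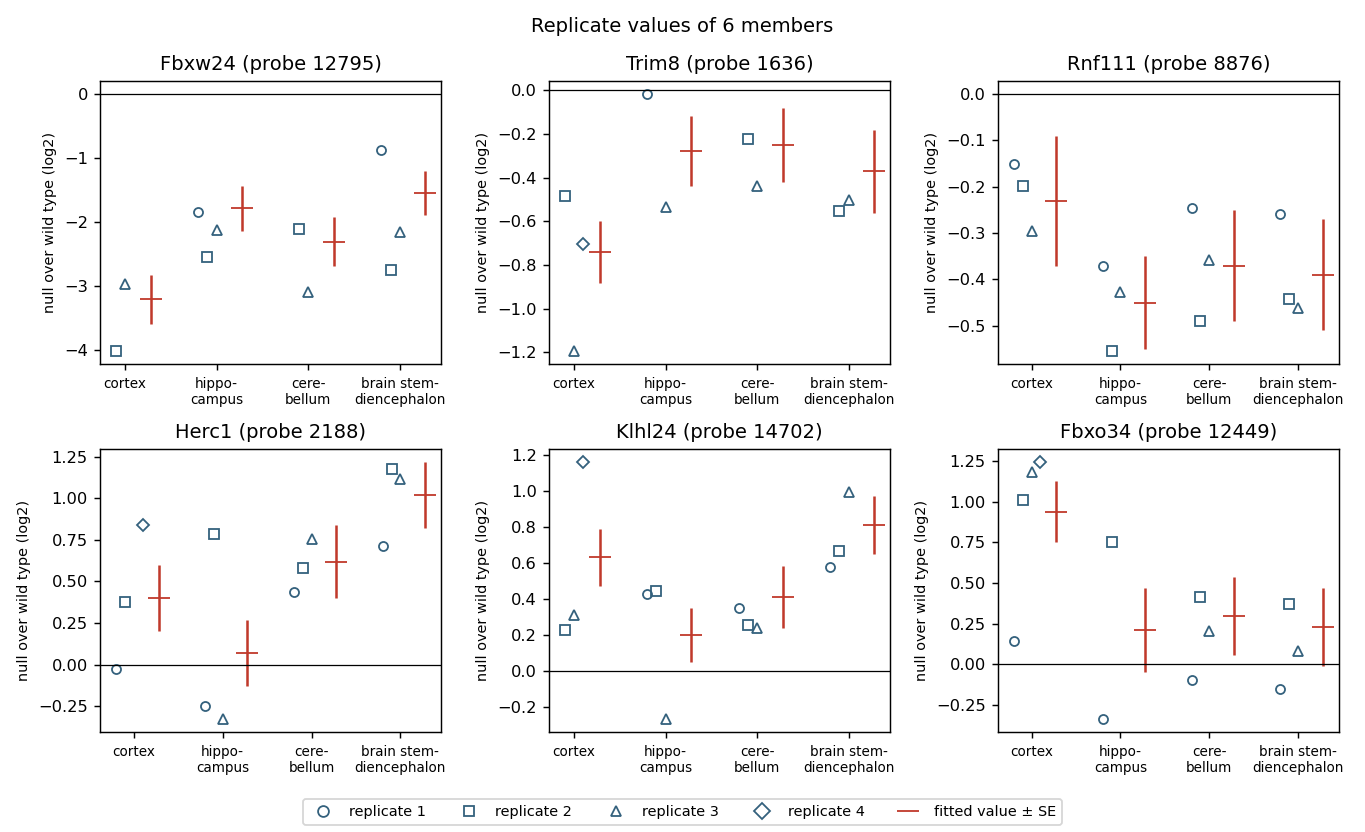
Null over wild type log2 ratio (y axis) of each replicate (blue symbols, by replicate number) in the 4 regions (x axis) for 6 member probes, with the fitted ratio and its SE in red. All replicates of Fbxw24, Trim8 and Rnf111 lie below 0, and replicate 1 is the lowest value of Fbxo34 in each region.

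Of the 27 Trim probes 13 lay above 0 and 14 below in the mean. None was called higher and 3 were called lower (11.1% called, against 13.4% of all probes). Trim8, a RING ligase that acts on p53 and NF-kappaB signalling in human cells, was the only gene with several probes whose probes were all called. Probe 1636 had -0.48, -1.19 and -0.70 in cortex, -0.02 and -0.53 in hippocampus, -0.22 and -0.44 in cerebellum, and -0.55 and -0.50 in brain stem-diencephalon. Probe 10662 had -0.30, -0.51 and -0.14 in cortex, -0.26, -0.27 and -0.17 in hippocampus, -0.16 and -0.71 in cerebellum, and -0.18, -0.34 and -0.24 in brain stem-diencephalon. Every replicate value of both Trim8 probes lay below 0, although in probe 1636 the swapped array of cerebellum replicate 2 stood at 0.05. Replicate 1 of cortex and of cerebellum had no value in either Trim8 probe. Their means fell by 0.41 ± 0.09 (SE, n = 9, limma adjusted p = 0.0197) and by 0.27 ± 0.06 (n = 11, limma adjusted p = 0.0189), and each lost its call under 2 alternatives, among them the fit without replicate 4 of cortex.

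Trim62 fell by 0.24 ± 0.06 in the mean (SE, n = 13, limma adjusted p = 0.017). It was the called member without 1 sign in all regions, with fitted ratios of -0.39 in hippocampus and -0.41 in brain stem-diencephalon, and of -0.18 in cortex and 0.02 in cerebellum. Trim46, which bundles microtubules at the axon initial segment, averaged -0.39 ± 0.12 and missed the threshold (limma adjusted p = 0.0559). Trim23, which has an ARF domain, had the highest Trim mean, 0.31 ± 0.11 (limma adjusted p = 0.0648). The probes of Trim28, a co-repressor of zinc finger proteins, averaged -0.01, 0.03 and 0.10.

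The Rnf family gave 9 calls among 57 probes, 4 higher and 5 lower. That is 15.8% of the family, near the 13.4% of all probes called. Rnf34, a RING ligase that targets caspases in human cells, had ratios of 0.27, 0.40, -0.10 and 0.63 in cortex, of 0.11, 0.47 and 0.30 in hippocampus, of 0.17, 0.53 and 0.57 in cerebellum, and of 0.13, 0.36 and 0.02 in brain stem-diencephalon. Of its 13 values 12 lay above 0, and its mean was 0.38 ± 0.07 (SE, limma adjusted p = 0.00745). Rnf14, which binds the androgen receptor, averaged 0.33 ± 0.09 (n = 11, limma adjusted p = 0.0314), but the call ended under 13 of 24 alternatives, and its other probes averaged 0.00 and 0.04. Rnf141 averaged 0.24 ± 0.06 (n = 12, limma adjusted p = 0.0167), with 0.18 in its second, uncalled probe, and Rnf181 averaged 0.23 ± 0.07 (n = 12, limma adjusted p = 0.0397).

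Rnf111, also called Arkadia, which promotes TGF-beta signalling by degrading its inhibitor Smad7, had the lowest Rnf mean. Its ratios were -0.15, -0.20 and -0.30 in cortex, -0.37, -0.56 and -0.43 in hippocampus, -0.25, -0.49 and -0.36 in cerebellum, and -0.26, -0.44 and -0.46 in brain stem-diencephalon. All 12 lay below 0, and the mean fell by 0.36 ± 0.09 (SE, limma adjusted p = 0.0186), while the second Rnf111 probe averaged -0.21 and was not called. Rnf26, a RING protein of the endoplasmic reticulum membrane that positions endosomes, fell by 0.34 ± 0.07 in the mean (n = 13, limma adjusted p = 0.0126) and by 0.49 ± 0.11 in cortex (n = 4, limma adjusted p = 0.0418). Rnf19b was below 0 in all 13 replicates and fell by 0.26 ± 0.06 (limma adjusted p = 0.0123). Rnf146, which recognises poly-ADP-ribosylated proteins such as axin, was below 0 in 12 of 13 and fell by 0.22 ± 0.05 (limma adjusted p = 0.0123).

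Rnf185, a ligase of endoplasmic reticulum-associated degradation, was called lower with a fitted mean of -0.23 ± 0.07 (SE, n = 13, limma adjusted p = 0.0483) although 7 of its 13 replicates lay above 0. Its channel 1 arrays averaged 0.18 and its swapped arrays -0.61. It was the only called probe whose orientations differed in sign.

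**Figure D4:**
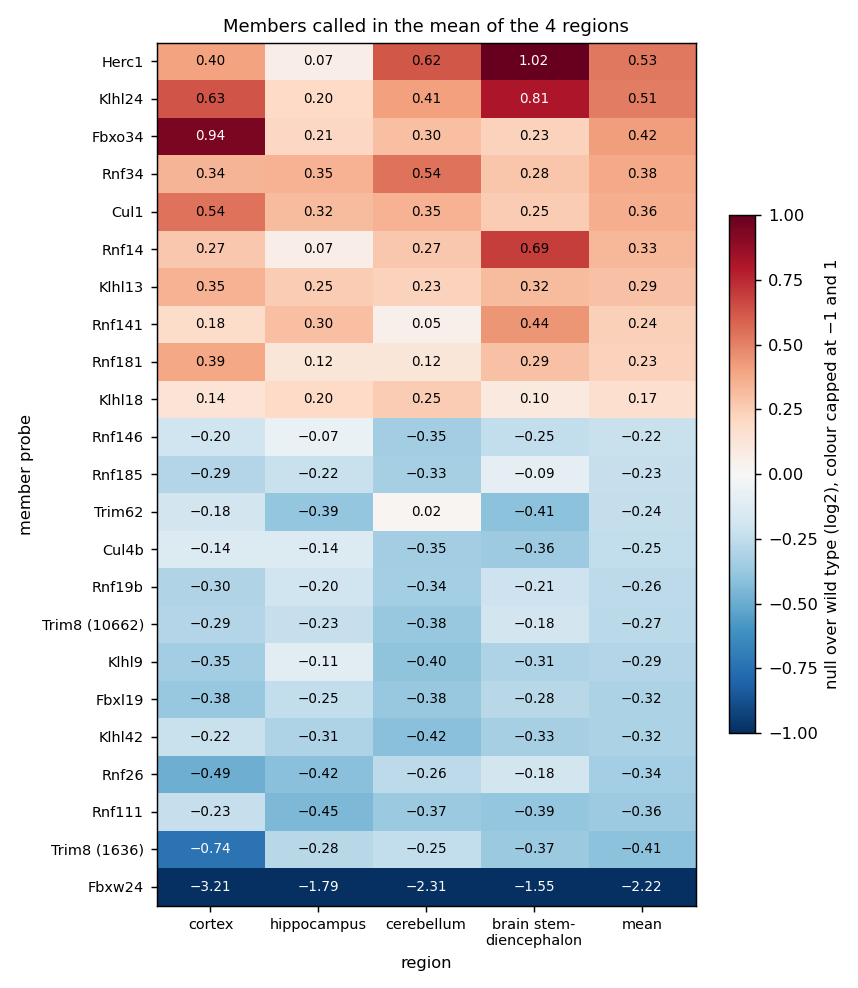
Fitted null over wild type log2 ratios of the 23 member probes called in the mean (rows, highest mean at the top) in the 4 regions and in their mean (columns). Colour is capped at -1 and 1, and probe numbers are given for Trim8. Only Trim62 has a ratio on the other side of 0, 0.02 in cerebellum.

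Within single regions few members were called. In cortex 6 of 145 passed the threshold (4.14%, against 2.42% of all probes), with Fbxo34 (0.94), Cul1 (0.54) and Klhl13 (0.35) higher, as were 1.02% of all probes, and Fbxw24 (-3.21), Trim8 (-0.74, probe 1636) and Rnf26 (-0.49) lower, as were 1.4%. In cerebellum Fbxw24 was the only one (0.69%, against 0.381% of all probes in either direction and 0.292% lower). In hippocampus, where 0.381% of all probes were called, and in brain stem-diencephalon, where 0.292% were, limma called 0 members, while 16 members in hippocampus and 24 in brain stem-diencephalon had an unadjusted p under 0.05, beside 13.6% and 11.9% of all probes. The cortex count fell to 1, Fbxw24 or Trim8, in each fit without replicate 2, 3 or 4 of cortex (0.528%, 0.211% and 0.0325% of all probes). Without replicate 1 of cortex it was 29 (15.8% of all probes). The cortex count was also 1 without replicate 2 of cerebellum (0.417%) or replicate 3 of brain stem-diencephalon (0.673%), and 2 without replicate 3 of cerebellum (0.941%). It was 3 without replicate 2 of hippocampus (1.2%) or of brain stem-diencephalon (1.16%), and 12 without replicate 1 of hippocampus (6.24%). The cortex call of Fbxw24 ended under 1 of 24 alternatives, and those of Fbxo34, Rnf26, Cul1 and Klhl13 ended under 7, 9, 12 and 16. That of Trim8 ended under 7 of its 22 alternatives. The cerebellum call of Fbxw24 ended under 4.

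Differences between regions were tested directly. The F test of equal ratios called 0 members at an adjusted p under 0.05, and 1 probe (0.00811%) of all. At an unadjusted p under 0.05 it held 7 members (4.83%), against 4.86% of all probes. None of the 6 pairwise differences was called for any member, at unadjusted counts of 4 to 11 members a pair. These counts were 2.76% to 7.59% of the members, against 2.95% to 7.08% of all probes, and the highest, 7.59% for hippocampus minus brain stem-diencephalon, stood beside 4.52% of all probes. The smallest p of the F test belonged to Rnf43, Trim62 and Fbxw24. Rnf43, which removes Wnt receptors from the cell surface, had 0.29, 0.45 and 0.10 in cortex and values from -0.17 to 0.11 in the other regions. Its ratio in cortex exceeded that in cerebellum by 0.46 (95% interval 0.19 to 0.73, limma adjusted p = 0.473). For Fbxw24 the difference of cortex and brain stem-diencephalon was -1.66 (95% interval -2.65 to -0.68, limma adjusted p = 0.651). For Fbxo34 the difference of cortex and hippocampus was 0.74 (95% interval 0.05 to 1.43, limma adjusted p = 0.95), so the higher cortex value is not shown to be particular to cortex.

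Several probes of 1 gene allowed a check on the array itself. Among the members 23 genes had 2 to 4 probes, 57 probes in all, and the probes of 14 genes had the same sign in the mean. A call was present in 8 of the 23 genes, in 6 of them with all probes on the same side of 0. Those 6 include Klhl24 and Rnf14, whose lowest probes stood at 0.02 and 0.00, so next to 0. Trim8 alone had all its probes called. The median gap between the highest and lowest probe of a gene was 0.17, and it reached 0.48 in Cul1, 0.47 in Cul4b, 0.47 in Rnf2 and 0.50 in Klhl24. Probes of Rnf2, the Polycomb ligase of histone H2A, ran from -0.19 to 0.28, and those of Rnf20, the ligase of histone H2B, from -0.23 to -0.12. A single called probe of a gene is therefore given as a value of that probe, and 14 of the 22 called genes had only 1 member probe.

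**Figure D5:**
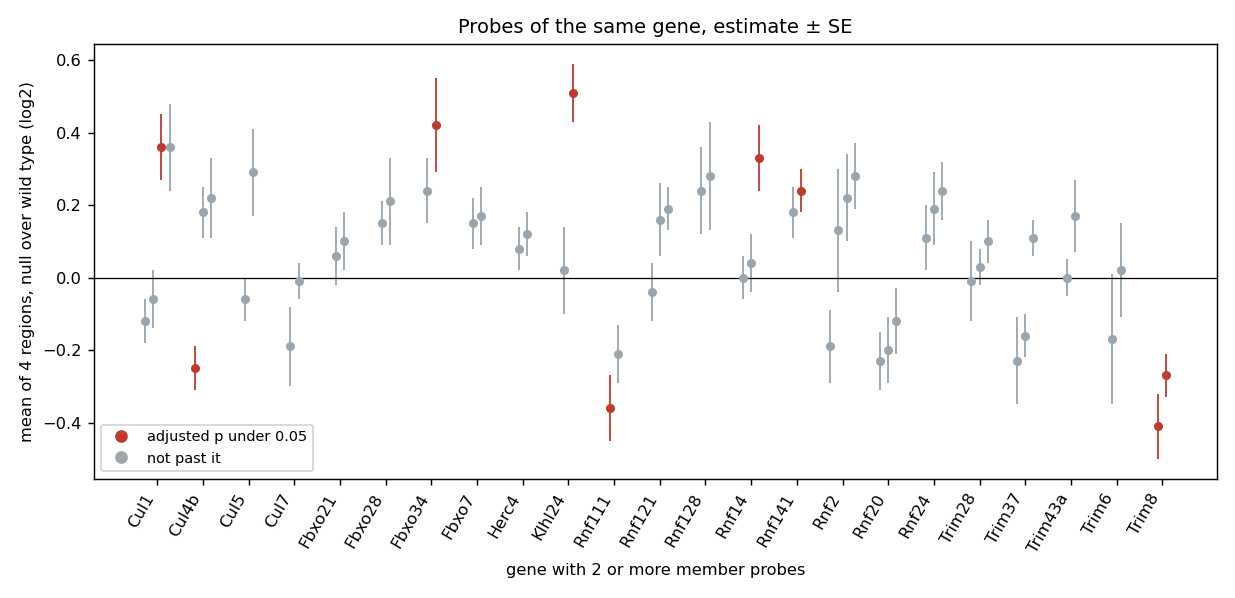
Fitted null over wild type log2 ratio (mean of the 4 regions, y axis) with its SE for each probe of the 23 member genes with 2 or more probes (x axis), red where the adjusted p is under 0.05. Both Trim8 probes are red and below 0, whereas Cul1, Cul4b and Rnf2 have probes on both sides of 0.

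Members on the X chromosome were read beside Eif2s3y, since that gene set the number 1 arrays apart. Rnf128, a transmembrane ligase known from T cell anergy, had ratios of -0.34, -0.40, -0.17 and -0.21 in the replicates of number 1 (probe 9526), in the order cortex, hippocampus, cerebellum and brain stem-diencephalon. The other replicates ranged from 0.32 to 0.81, so number 1 did not overlap the rest in this probe. The share of all probes with such a gap was not counted. The second Rnf128 probe had a median of -0.23 in number 1, 0.29 in number 2 and 0.19 in number 3. Neither probe was called in the mean (0.28 ± 0.15 and 0.24 ± 0.12). Klhl13 had medians of 0.27, 0.27 and 0.28 in numbers 1, 2 and 3. In the same order the Cul4b medians were -0.32, 0.09 and -0.08 (probe 473), 0.08, 0.21 and 0.01 (probe 3621), and 0.03, 0.29 and 0.05 (probe 5830). Fbxo11 on chromosome 17, picked after its values were seen, had medians of -0.27, 0.48 and 0.40 in the same order. The share of probes with low number 1 values was not counted by chromosome. The part of the number 1 arrays in these values was not tested.

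The partners of the cullins and the ligases of other kinds were read from further lists. Of the cullin partners 33 genes with 45 probes were measured. In the mean 3 probes were called higher and 2 lower (11.1%, against 13.4% of all probes), and the list median was -0.02. Nedd8, the ubiquitin-like protein that activates cullins, fell by 0.52 ± 0.10 (SE, n = 13, limma adjusted p = 0.00904), and Ube2f, which conjugates Nedd8 to Cul5, fell by 0.21 ± 0.05 (limma adjusted p = 0.0209). Subunits of the COP9 signalosome, which takes Nedd8 off cullins, made up the higher calls, namely Cops2 at 0.65 ± 0.16 in 1 of 2 probes, Cops3 at 0.20 ± 0.06 and Cops6 at 0.37 ± 0.07 (limma adjusted p = 0.0213, 0.0461 and 0.00745). Cops4, Cops5, Cops7a, Cops8 and Gps1, further subunits, were not called. The probes of Skp1 (-0.02 and -0.14), Rbx1 (-0.14, -0.03 and 0.11) and Ddb1 (-0.02 and 0.00), which join cullins to adaptors and to the charged enzyme, were not called either.

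Among ligases outside the families, 42 genes with 69 probes were measured, of which 8 probes were called higher and 4 lower (17.4%, against 13.4% of all probes). All 3 probes of Ube4b, a U-box ligase whose start is part of the Wallerian degeneration slow fusion protein of mouse, were lower, at -0.42 ± 0.11, -0.42 ± 0.08 and -0.40 ± 0.07 (SE, limma adjusted p = 0.0267, 0.0103 and 0.00711). Nedd4, a HECT ligase of membrane proteins, was higher in 2 of 3 probes, at 0.43 ± 0.09 and 0.38 ± 0.11. Mycbp2, which shapes axons and synapses, was higher in 1 of 3 probes, at 0.91 ± 0.23 (limma adjusted p = 0.0232), with 0.17 and 0.08 in the others. Ube3a, the ligase lost in Angelman syndrome, averaged -0.14 ± 0.06 and was not called.

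Markers of brain cell types are given beside these results. Of the neuronal markers 2 had a probe, Tubb3, which fell by 0.63 ± 0.13 (SE, n = 13, limma adjusted p = 0.0099), and Nefl at -0.05 ± 0.09. Of the erythrocyte and vessel markers 2 had a probe, with Hbb-b1 higher at 0.56 ± 0.11 and Pecam1 lower at -0.44 ± 0.08 (limma adjusted p = 0.00816 and 0.00516). The 3 microglial markers, the 3 astrocyte markers, Mbp and Ttr had means of -0.13 to 0.11 and were not called. The part of these cell types in the members' ratios was not tested.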

How the data were processed

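The members, families, lists and rule for named genes were chosen with earlier results of these data known. The deposited values are log2 ratios of the 2 channels of an array, read as log2 from their range. The array medians as deposited lay between 0.00862 and 0.0609, and per the labels the RNA was amplified. None of the sources used here gives the image analysis, background correction or normalization. Probe names came from a table of the platform's annotation, where 9604 of 15245 probes had 1 gene symbol, 213 had several and 5428 had none, and 9496 symbols were updated by Entrez ID (GRCm38.p6, names only).

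Values were centred on each array's median, swapped arrays were multiplied by -1, and same-numbered arrays of 1 region were averaged into 1 replicate. An array held values for 6793 to 13963 probes, signal over background was not analysed, and precision is limited by the number of arrays. A probe needed 2 arrays in every region and 2 residual degrees of freedom. limma 3.58.1 in R 4.3.3 moderated the variances (prior degrees of freedom 5.9, residual 8 for a complete probe), and each ratio was tested against 0, which leaves out the spread of the wild-type pool. Benjamini-Hochberg adjustment was used with a threshold of 0.05. On simulated data the fit recovered 85% of changes of 0.5 and 100% of changes of 1 (log2) in the mean, and called 11 unchanged probes. The simulated replicates were independent, whereas same-numbered replicates of different regions correlated here, so these rates need not hold for the real data. Named are all members called per region, the 8 highest and 8 lowest called in the mean, every cullin, the extremes of each family, the 3 members with the smallest F test p and genes with several probes. Other genes, among them the remaining called members and those named for their function, were chosen after their values were seen. Alternatives changed the filter, centring, scale, orientation term, moderation, averaging, repeated array and replicates. Figures used matplotlib in Python. The mutated gene is not reported here.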

Additional observations from a re-analysis of the deposited data

Results flagged for a closer look

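Cul7 probe 9638 in cortex was set apart by 1 replicate. The swapped array without a number, replicate 4, had a ratio of -0.04, and replicates 1 to 3 had ratios of 0.09 to 0.10. It is 1 of 20 named probes with 4 cortex values that were examined, and chance marks about 1 in 20 such groups. The gap is small and the probe was not called in any region.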

How the results depend on the processing

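Counts of called members depended on the replicates and on the swapped arrays. In the mean of the regions (23 as reported) the count was 40 with the repeated array kept (21.1% of all probes were called), 45 with no orientation term (24.7%), 58 with arrays entered singly under a random block (28.3%) and 61 without the channel 1 arrays of number 1 (31.1%), and 2 to 35 when single replicates were left out. In cortex (6) it was 1 with arrays scaled to one spread (0.17%), 13 singly (7.08%), 37 without the number 1 arrays (18.9%), and 1 to 29 over single replicates. In hippocampus (0) it was 2 with no orientation term (0.558%), 3 singly (1.8%), 5 without the number 1 arrays (3.38%), and 0 to 1 over replicates. In cerebellum (1) it was 6 with the repeated array (2.25%), 0 scaled (0.365%), 4 singly (2.78%), 2 without the number 1 arrays (1.8%), and 0 to 1 over replicates. In brain stem-diencephalon (0) it was 2 scaled (0.373%), 2 with no orientation term (0.55%), 3 singly (0.559%), 3 without the number 1 arrays (0.626%), and 0 to 1 over replicates. The F test gave 0 throughout. The cause of these moves was not tested. With the number as a replicate block the counts were 2 in cortex (0.995% of all probes), 3 in hippocampus (4.35%), 2 in cerebellum (1.9%), 2 in brain stem-diencephalon (0.763%) and 17 in the mean (8.19%). Of the named calls, it ended those of Fbxo34, Cul1, Klhl13 and Rnf26 in cortex and of Fbxo34, Rnf34, Rnf14, Rnf141, Rnf26, Fbxl19, Klhl9 and Trim8 (probe 10662) in the mean. Same-numbered replicates of different regions correlated at 0.00983 to 0.635 (median 0.297, 18 pairs), and those of different numbers at -0.594 to 0.527 (median -0.124, 45 pairs). All 12 numbered replicates correlated best with their own number. Whether replicates of 1 number share a source was not tested. The reported fit treats them as independent, so its SE and adjusted p in the mean may be too small. Over 23 named results and their alternatives, the direction never reversed, the call held 436 times and ended 111 times. Family medians moved by less than the spread between replicates in 142 cases and by more in 2. Symbols as in the probe table gave the same 171 probes. Where a probe then had a lone value in a region, it was assumed to vary like the others.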
